A study of Mus musculus with 14 samples.

Results

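The synaptonemal complex genes Sycp1, Sycp2, Sycp3, Syce1, Syce2, Syce3 and Tex12 and the HORMA domain genes Hormad1 and Hormad2 were followed through RNA sequencing libraries of mouse male germ cells with and without the DNA methyltransferase DNMT3C. The genes were chosen by name, as the rows of the deposited count tables that carry these symbols, and not by their values, though with earlier results of these data known. All 9 were found in both tables, among 32667 gene rows for spermatogonia and 36888 for spermatocytes, and all 9 passed the filter on low counts in each comparison.

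Polyadenylated RNA came from sorted testicular germ cells of mice on a C57Bl6/J background, homozygous for the Dnmt3C knockout allele (Dnmt3C KO/KO, called KO) or wild type (WT). Spermatogonia (Spg) were sorted from testes at postnatal day 14 as living cells negative for β2-microglobulin and positive for Ep-CAM, with 3 KO and 3 WT libraries. Spermatocytes (Spc) were sorted from mice older than 20 days by Hoechst staining of DNA content and exclusion of propidium iodide, with 4 KO and 4 WT libraries. Spermatogonia and spermatocytes therefore differed in age and sort as well as in cell type, and these cannot be told apart. Littermates were used, no label says which libraries share a litter or whether animals were pooled, and p-values measure the spread between these libraries only.

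During meiosis each chromosome is folded along a protein axis, and the axes of homologous chromosomes are zipped together by the synaptonemal complex. SYCP2 and SYCP3 build the axis, which becomes the lateral element of the complex. SYCP1 forms the transverse filaments between both lateral elements, and SYCE1, SYCE2, SYCE3 and TEX12 form the central element where the filaments meet. HORMAD1 and HORMAD2 bind axes that are not yet synapsed and are largely removed once the complex has assembled. Males that lack synaptonemal complex proteins generally fail in meiotic prophase and are sterile.

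Promoter sequences are shown for the 3 genes that were lower in KO spermatocytes (Syce1, Syce3 and Sycp2) and, for contrast, for the axis genes Sycp3 and Hormad1, whose levels overlapped between genotypes there. Each is the 250 bases before the RefSeq start site on GRCm38.p6, written 5′ to 3′ along the strand of the gene. Syce1 is at chr7:140787855-140788104 on the minus strand, Syce3 at chr15:89410504-89410753 on the minus strand, Sycp2 at chr2:178407659-178407908 on the minus strand, Sycp3 at chr10:88459337-88459586 on the plus strand and Hormad1 at chr3:95559427-95559676 on the plus strand. Capitals mark matches to binding motifs of NRF1, E2F or E-box factors, and in Syce3 an annotated L2b element.
Syce1: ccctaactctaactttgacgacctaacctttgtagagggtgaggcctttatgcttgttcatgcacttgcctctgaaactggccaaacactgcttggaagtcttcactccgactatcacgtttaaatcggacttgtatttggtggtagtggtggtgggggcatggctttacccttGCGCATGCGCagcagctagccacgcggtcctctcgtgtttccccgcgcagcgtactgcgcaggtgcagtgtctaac
Syce3: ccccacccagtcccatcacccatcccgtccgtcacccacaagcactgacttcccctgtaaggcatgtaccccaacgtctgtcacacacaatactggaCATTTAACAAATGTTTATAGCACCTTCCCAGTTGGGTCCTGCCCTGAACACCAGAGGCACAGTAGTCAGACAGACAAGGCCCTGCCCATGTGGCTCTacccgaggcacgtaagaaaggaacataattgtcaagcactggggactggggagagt
Sycp2: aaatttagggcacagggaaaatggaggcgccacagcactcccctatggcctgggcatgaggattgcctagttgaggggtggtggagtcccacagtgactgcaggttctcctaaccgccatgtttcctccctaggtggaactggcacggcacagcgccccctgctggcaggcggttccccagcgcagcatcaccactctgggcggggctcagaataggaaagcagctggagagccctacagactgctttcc
Sycp3: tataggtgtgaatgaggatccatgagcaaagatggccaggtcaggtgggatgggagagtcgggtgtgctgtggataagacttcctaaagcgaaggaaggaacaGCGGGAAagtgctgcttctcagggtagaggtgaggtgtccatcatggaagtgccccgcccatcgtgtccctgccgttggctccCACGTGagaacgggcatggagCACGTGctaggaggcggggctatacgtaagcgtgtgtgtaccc
Hormad1: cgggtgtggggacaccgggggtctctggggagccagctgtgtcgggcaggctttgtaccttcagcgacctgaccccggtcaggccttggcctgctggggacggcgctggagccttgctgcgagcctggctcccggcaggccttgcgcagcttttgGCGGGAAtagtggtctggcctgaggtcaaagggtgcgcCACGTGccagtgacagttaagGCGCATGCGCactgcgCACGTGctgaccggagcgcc

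The window searched ran from 250 bases before to 50 bases after the start site, on both strands. The palindromic NRF1 motif (GCGCA followed directly by its reverse complement) was in 2 of the 9 members, Syce1 at position -76 and Hormad1 at -36, against 0.977% of 27025 promoters, with negative positions counted back from the start site. With the base after GCGCA left free, which includes every palindromic match, it was in 3 members, Tex12 being the third, against 4.78% of promoters. The E-box CACGTG was in 4 members (Sycp1, Sycp3, Tex12 and Hormad1) against 7.24%. The E2F motif GCGGGAA was in 3 members (Sycp3, Tex12 and Hormad1) against 4.66%, and the STRA8 motif CNCCTCAG was also in 3 (Sycp1, Tex12 and Hormad2), against 7.97%. The CREB motif TGACGTCA and the MYB motif GGCAGTT had no match among the members and were in 1.88% and 4.14% of all promoters. CpG dinucleotides numbered 5 in Syce3, 10 in Sycp2, 14 in Syce1, 15 in Sycp3, 16 in Hormad2, 19 in Syce2, 21 in Sycp1, 24 in Hormad1 and 26 in Tex12, where the median promoter held 7. The 3 genes called lower in KO spermatocytes held the fewest CpG of the 9, with Syce1 (14) and the uncalled Sycp3 (15) nearly level. The call of Sycp2 rested on the scaling and on single libraries, as given below. Syce3 alone fell below the median promoter. A link between CpG number and the knockout was not tested. These matches describe the letters only.

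Total counts ran from 40555726 to 53323651 per library, and the 9 genes together took 0.114% to 0.328% of them. Transposable elements (TE) took 2.28% to 5.44% of counts in spermatogonia, 1.77% to 2.93% in WT spermatocytes and 5.74% to 8.67% in KO spermatocytes. Counts of the deleted gene Dnmt3c were low in all groups (53 to 116 in spermatogonia, 52 to 57 in KO spermatocytes, 11 to 28 in WT spermatocytes) and not lower in KO, so KO and WT stand for the libraries labelled so. Spermatocyte replicates 1 and 4 of each genotype were far more alike than other pairs (median chi-square per gene 3.61 in KO and 2.44 in WT, against 30.9 to 120 for the rest), yet differed by more than sampling noise. The labels give them as separate replicates without naming animals, and whether they share animals or RNA was not tested. They were kept as separate libraries, and calls that change when they are summed are given both ways. WT spermatocyte replicate 3 stood apart, with a summed level of 8 pachytene marker genes of 9031 CPM against 14078 to 15008 in the other WT libraries.

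Levels are CPM (depth-scaled counts, with TMM factors over all 14 libraries), and differences are log2 fold changes with their standard error (SE) from edgeR's quasi-likelihood test, where a gene counts as called if its p, adjusted by Benjamini-Hochberg over all genes and TE subfamilies, is under 0.01. In spermatogonia none of the 9 genes was called between KO and WT, where 0.0741% of all features were. In spermatocytes 3 of 9 were called, all lower in KO. The background there was high, 57.4% of all features called and 30.1% called lower, so the number of members called was below the share of all features. The count was 1 under library totals (58.1%), 2 with spermatocyte replicates 1 and 4 summed (38.2%) and 4 with the replicate block (50.9%). From WT spermatogonia to WT spermatocytes 5 of 9 were called (51.4% of all features), 4 higher (28.9%) and 1 lower (22.5%). Library totals left 2 called (53.1%), and DESeq2 called 6 (58.8%). From KO spermatogonia to KO spermatocytes 2 of 9 were called, both higher, where 2.99% of all features were called and 2.95% called higher. That count did not hold up, falling to 0 under library totals (2.41% of all features), with the replicate block (1.49%), with spermatocyte replicates 1 and 4 summed (1.41%) and without any 1 of the KO spermatogonia libraries (0.428% to 0.832%), WT spermatogonia replicate 1, KO spermatocyte replicate 1, 3 or 4, or WT spermatocyte replicate 2 (1.53% to 4.04%). The effect of the knockout differed between the stages for 2 of 9, both lower in spermatocytes, against 24.9% of all features and 14.3% with that sign. In bulk libraries fewer cells of a type and less RNA per cell cannot be told apart.

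**Figure D1:**
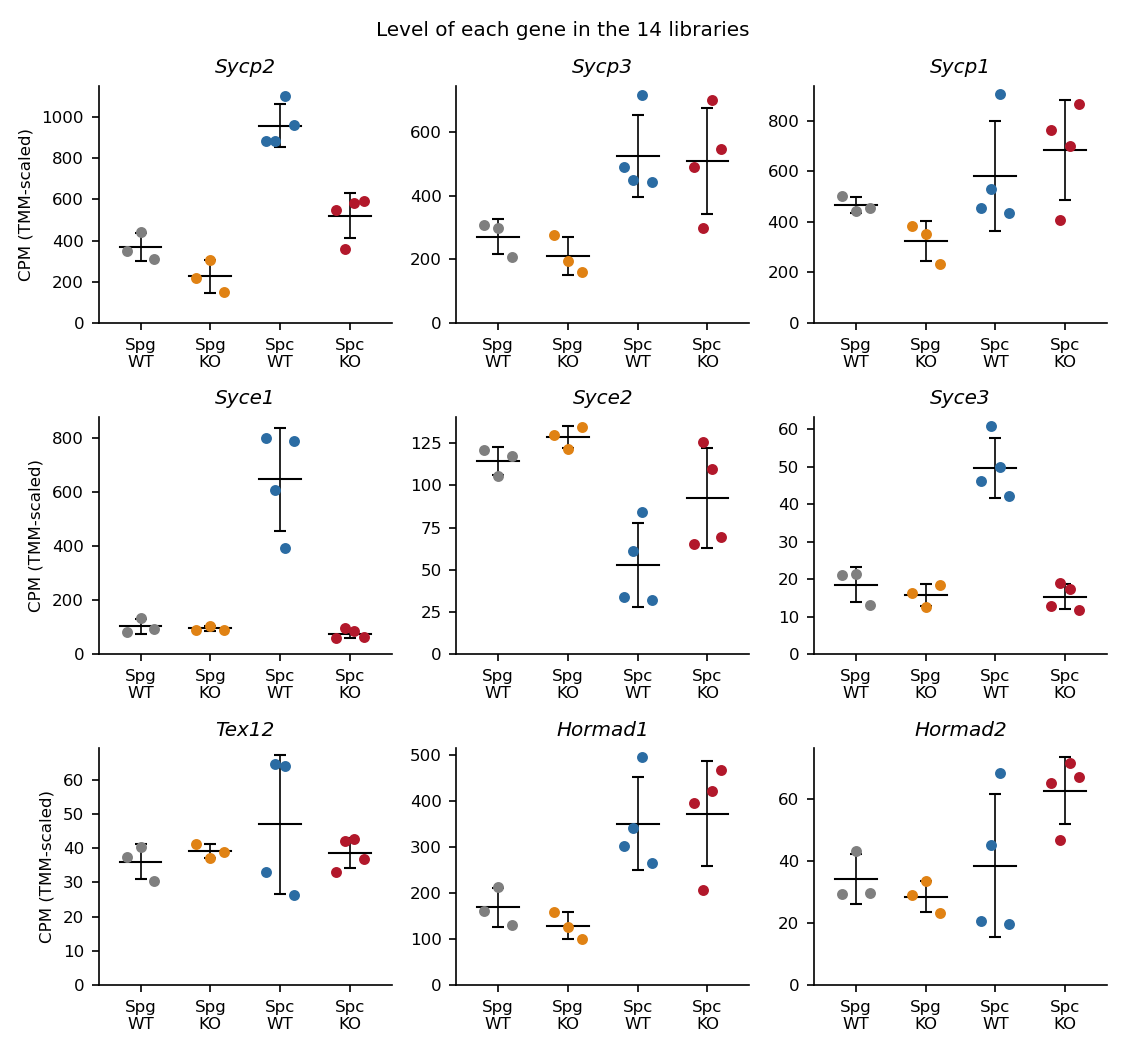
Level of each of the 9 genes in every library (CPM, linear axis), with points for single libraries and bars for group means with SD of Spg WT, Spg KO, Spc WT and Spc KO. Syce1 and Syce3 in WT spermatocytes lie above every library of the other 3 groups.

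Sycp2 encodes a large coiled-coil protein of the lateral element and lies at chr2:178345293-178407685 on the minus strand of GRCm38, with 45 exon blocks. Listed in the order of the replicates, its level was 221, 308 and 149 CPM in KO and 351, 443 and 312 CPM in WT spermatogonia. KO spermatocytes held 549, 360.1, 582 and 591 CPM and WT spermatocytes 883, 885, 1103 and 961 CPM. Every KO library was below every WT library at each stage, and both spermatocyte groups were above both spermatogonia groups apart from KO replicate 2 of spermatocytes, which fell within the range of WT spermatogonia. The mean in spermatocytes was 521 ± 108 CPM (SD, n = 4) in KO and 958 ± 103 in WT. KO differed from WT by -0.86 in log2 terms (SE 0.21, edgeR adjusted p = 0.00467). In spermatogonia it was -0.75 (SE 0.26, edgeR adjusted p = 0.473), not called. The effect of the knockout did not differ detectably between stages (-0.17, SE 0.34, edgeR adjusted p = 0.700).

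The call of Sycp2 in spermatocytes rested on the scaling and on single libraries. It was lost when counts were scaled by library totals (-0.19, edgeR adjusted p = 0.442), when replicates 1 and 4 were summed (-0.91, edgeR adjusted p = 0.0260), without KO replicate 1 (adjusted p = 0.0145) and, narrowly, without WT replicate 4. Library totals moved the median over all genes from 0.11 to 0.79 in this comparison, and the calls over all features from 6254 higher and 6870 lower to 8329 higher and 4951 lower. Relative to the median of all genes Sycp2 lay lower in KO under either scaling.

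Sycp3, whose product forms the fibres of the lateral element together with SYCP2, lies at chr10:88459569-88473236 on the plus strand. Its exons overlap the gene Chpt1 on the opposite strand, and the counting used strand. KO spermatogonia held 277, 196 and 159 CPM and WT spermatogonia 309, 299.7 and 207. KO spermatocytes held 491, 299.8, 701 and 549 CPM and WT spermatocytes 491, 449, 717 and 443. The genotypes overlapped at both stages. In spermatocytes the difference was -0.01 (SE 0.28, edgeR adjusted p = 0.966), with a sign that turned under library totals (0.63). Spermatocytes were above spermatogonia in both genotypes without overlap, by 0.95 (SE 0.29) in WT and 1.28 (SE 0.29) in KO, and neither passed the threshold (edgeR adjusted p = 0.0105 and 0.0164). The WT value passed it narrowly with DESeq2 size factors and with a mean count of at least 50, and by the DESeq2 test (adjusted p = 0.00397), and fell to 0.17 under library totals.

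Sycp1, the transverse filament gene, spans chr3:102818499-102936100 on the minus strand in 34 exon blocks, and a pseudogene of it, Sycp1-ps1, could share some of its reads. Its levels were 383, 353 and 233 CPM in KO and 502, 441 and 454 CPM in WT spermatogonia. They were 762, 407, 699 and 866 CPM in KO and 454, 529.8, 903 and 436 CPM in WT spermatocytes. In spermatogonia every KO library was below every WT library, with a difference of -0.57 (SE 0.19) that was not called over all features (edgeR adjusted p = 0.404). In spermatocytes the genotypes overlapped, with KO replicate 2 lowest of all 8 libraries and WT replicate 3 highest, and the difference was 0.27 (SE 0.30, edgeR adjusted p = 0.439). The knockout effect was 0.76 (SE 0.41) more positive in spermatocytes than in spermatogonia, which did not pass the threshold (edgeR adjusted p = 0.138).

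Syce1 showed the widest separation of the 9 genes between the genotypes. It encodes a central element protein that binds SYCP1 fibres, and lies at chr7:140777229-140787852 on the minus strand of chromosome 7. In WT spermatocytes its level was 800.2, 609, 392 and 792 CPM. In KO spermatocytes it was 60.5, 96.1, 84.9 and 62.1 CPM, from raw counts of 2993, 5362, 4456 and 3048 against 25922, 20217, 16384 and 22765 in WT. Spermatogonia held 90.3, 105 and 89.4 CPM in KO and 81.9, 133 and 93.3 CPM in WT. WT spermatocytes thus stood above the other 3 groups, which overlapped one another, and WT replicate 3 was the lowest of its group. The mean was 75.9 ± 17.5 CPM (SD, n = 4) in KO and 648 ± 192 CPM in WT spermatocytes, 8.48-fold lower in KO by the fit (log2 -3.08, SE 0.30, edgeR adjusted p = 2.24e-05).

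Between the stages Syce1 rose 6.32-fold in WT (log2 2.66, SE 0.28, edgeR adjusted p = 9.85e-06), while the log2 value in KO was -0.32 (SE 0.26, edgeR adjusted p = 0.461). The difference of the knockout effect between stages was -2.98 (SE 0.37, edgeR adjusted p = 0.000170). Syce1 remained called in spermatocytes, in the WT stage comparison and in the difference under every alternative run, library totals included (-2.30 in spermatocytes).

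Syce3 encodes the smallest of the central element proteins, needed for recruiting the others, and lies at chr15:89390174-89410503 on the minus strand. Its levels were 16.2, 12.5 and 18.4 CPM in KO and 21.1, 21.4 and 13.2 CPM in WT spermatogonia. They were 12.9, 18.8, 17.4 and 11.9 CPM in KO spermatocytes and 46.1, 60.8, 49.8 and 42.1 CPM in WT spermatocytes, again with WT spermatocytes above all libraries of the other groups. The means were 15.3 ± 3.38 CPM (SD, n = 4) in KO and 49.7 ± 8.01 CPM in WT spermatocytes, 3.20-fold lower in KO by the fit (log2 -1.68, SE 0.24, edgeR adjusted p = 0.000226). Syce3 rose from WT spermatogonia to WT spermatocytes by 1.42 (SE 0.27, edgeR adjusted p = 0.000419), and the value in KO was -0.04 (SE 0.26). The knockout effect differed between stages by -1.46 (SE 0.37, edgeR adjusted p = 0.00645).

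Under library totals Syce3 kept its direction without passing the threshold, at -0.98 in spermatocytes (edgeR adjusted p = 0.0172), 0.61 between the WT stages (adjusted p = 0.102) and -0.72 for the difference (adjusted p = 0.191). With spermatocyte replicates 1 and 4 summed it stayed called in spermatocytes, and the difference between stages fell short of the threshold (edgeR adjusted p = 0.0143). A fit blocked on replicate number missed the threshold narrowly (log2 -1.49, edgeR adjusted p = 0.0101). The same difference was lost without replicate 1 or 3 of KO or of WT spermatogonia, without KO spermatocyte replicate 1 or 4 and without WT spermatocyte replicate 2, with adjusted p of at most 0.0258 (without KO spermatogonia replicate 3).

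Syce2 and Tex12 encode partners that assemble with each other into fibres along the central element. Syce2 lies at chr8:84872111-84888221 on the plus strand and Tex12 at chr9:50556819-50561325 on the minus strand. Syce2 was at 130.1, 122 and 134 CPM in KO and 121, 105 and 118 CPM in WT spermatogonia. Every KO library there was above every WT library, the opposite way to Sycp1 and Sycp2, and the difference was not called (0.13, SE 0.11, edgeR adjusted p = 1.000). In spermatocytes it was at 65.5, 126, 109.8 and 69.4 CPM in KO and 33.7, 60.9, 84.1 and 31.97 CPM in WT. It was the only one of the 9 that was lower in WT spermatocytes than in WT spermatogonia beyond the threshold (-1.12, SE 0.32, edgeR adjusted p = 0.00674), also under library totals. That call was lost with replicates 1 and 4 summed (adjusted p = 0.0180) and without WT spermatocyte replicate 1, 2 or 4 (adjusted p = 0.0218, 0.0104 and 0.0204). Between the genotypes in spermatocytes Syce2 differed by 0.85 (SE 0.35, edgeR adjusted p = 0.0475) with overlapping groups, the opposite sign to Syce1 and Syce3, and by 0.81 with replicates 1 and 4 summed (adjusted p = 0.0936).

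Tex12 had the narrowest range of the 9 over all libraries, from 26.3 to 64.8 CPM. It was at 41.3, 37.1 and 39.02 CPM in KO and 37.4, 40.4 and 30.4 CPM in WT spermatogonia. In spermatocytes the KO libraries held 33.2, 42.03, 42.6 and 36.8 CPM and the WT libraries 32.9, 64.8, 64.03 and 26.3 CPM. All groups overlapped, and among the WT spermatocytes replicates 2 and 3 were above every other library, with replicates 1 and 4 among the lowest 3 of the 14. The difference in spermatocytes was -0.25 (SE 0.30, edgeR adjusted p = 0.477), and no comparison called it.

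Hormad1, on which HORMAD2 depends to load, and which is needed for meiotic break formation and for synapsis, lies at chr3:95559677-95587671 on the plus strand. Spermatogonia held 159, 127 and 99.8 CPM in KO and 161, 213 and 131 CPM in WT. Spermatocytes held 396, 206, 422 and 466 CPM in KO and 302, 342, 495 and 264 CPM in WT. The genotypes overlapped at both stages (-0.44, SE 0.23 in spermatogonia and 0.12, SE 0.29 in spermatocytes, edgeR adjusted p = 0.862 and 0.727). Hormad1 rose between the stages in both genotypes, by 1.06 (SE 0.30, edgeR adjusted p = 0.00664) in WT and 1.54 (SE 0.30, edgeR adjusted p = 0.00683) in KO. Both stage calls were lost under library totals (adjusted p = 0.455 and 0.0242), with the replicate number as a block (adjusted p = 0.0203 and 0.0356) and with single libraries left out. With 1 library left out, the WT call held only without WT spermatogonia replicate 2, KO spermatocyte replicate 2 or WT spermatocyte replicate 1 or 4, and adjusted p otherwise reached 0.0700 (without WT spermatogonia replicate 3). The KO call was lost without any 1 of the KO spermatogonia libraries (edgeR adjusted p = 0.0233, 0.0481 and 0.0712), WT spermatogonia replicate 1, KO spermatocyte replicate 1, 3 or 4, or WT spermatocyte replicate 2. With replicates 1 and 4 summed the KO call was also lost (adjusted p = 0.0228).

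Hormad2, the paralogue that follows HORMAD1 onto unsynapsed axes and takes part in the response to asynapsis, lies at chr11:4345814-4441105 on the minus strand. It was at 28.9, 33.4 and 23.2 CPM in KO and 29.2, 43.3 and 29.7 CPM in WT spermatogonia. In spermatocytes it was at 64.99, 46.8, 71.5 and 67.03 CPM in KO and 20.7, 45.2, 68.2 and 19.7 CPM in WT. WT replicates 1, 2 and 4 were below all KO spermatocyte libraries, and the groups overlapped through WT replicate 3 alone (0.74, SE 0.38, edgeR adjusted p = 0.103). Without that library the difference was 1.16 (edgeR adjusted p = 0.0116), still short of the threshold. KO spermatocytes lay above KO spermatogonia in every library (1.13, SE 0.39, edgeR adjusted p = 0.0864), short of the threshold.

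**Figure D2:**
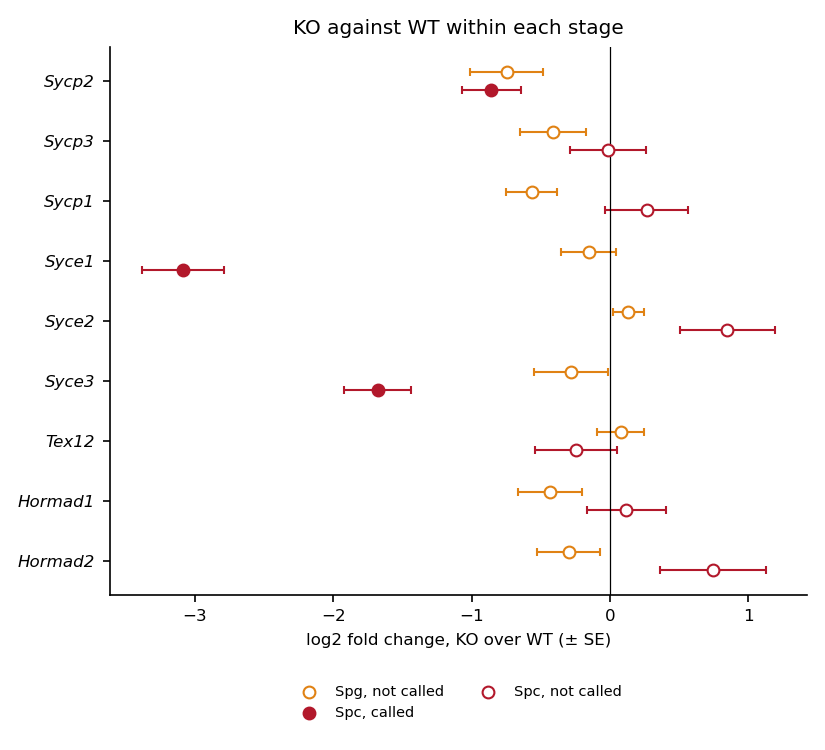
Log2 fold change of KO over WT for each gene in spermatogonia and spermatocytes, with bars of 1 SE and filled points where the adjusted p is under 0.01. In spermatocytes Syce1 is at -3.08, Syce3 at -1.68 and Sycp2 at -0.86, and no gene is filled in spermatogonia.

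In spermatogonia, 7 of the 9 values were below 0 and the median was -0.30, against 0.02 over all genes tested. Same-numbered libraries were taken as pairs, which is clear from the data for replicate 1 alone. Sycp1, Sycp2, Sycp3, Hormad1 and Hormad2 were lower in KO in 3 of 3 pairs and Syce2 was higher in 3 of 3. None of them was called with the replicate block either. Under it Sycp2 was at -0.79 (SE 0.12, edgeR adjusted p = 0.0297), Sycp1 at -0.59 (adjusted p = 0.123) and Syce2 at 0.13 (adjusted p = 0.778). Sycp1 and Sycp2 were under an unadjusted p of 0.05 by edgeR, where 1566 of 21580 features were, and DESeq2 called none of the 9 either. In spermatocytes the median over the 9 was -0.01 against 0.11 over all genes, with members on both sides. Between the WT stages the median was 0.95 against 0.02, and between the KO stages 1.08 against 0.02. The stage comparisons share the genotype groups with the other comparisons, so the values are not independent of one another.

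From KO spermatogonia to KO spermatocytes Sycp2 also rose (1.20, SE 0.25, edgeR adjusted p = 0.00845), as it did in WT (1.38, SE 0.25, edgeR adjusted p = 0.000294). The KO call of Sycp2 was lost under library totals (adjusted p = 0.0243), with replicates 1 and 4 summed (adjusted p = 0.0354), with the replicate number as a block (adjusted p = 0.0372) and without any single library other than KO spermatocyte replicate 2 or WT spermatocyte replicate 3 (up to 0.0784, without KO spermatogonia replicate 3). The WT call was lost under library totals (adjusted p = 0.0653). Library totals moved the median of all genes between the WT stages from 0.02 to -0.76, and their calls from 7325 higher and 5701 lower to 4631 higher and 8813 lower.

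**Figure D3:**
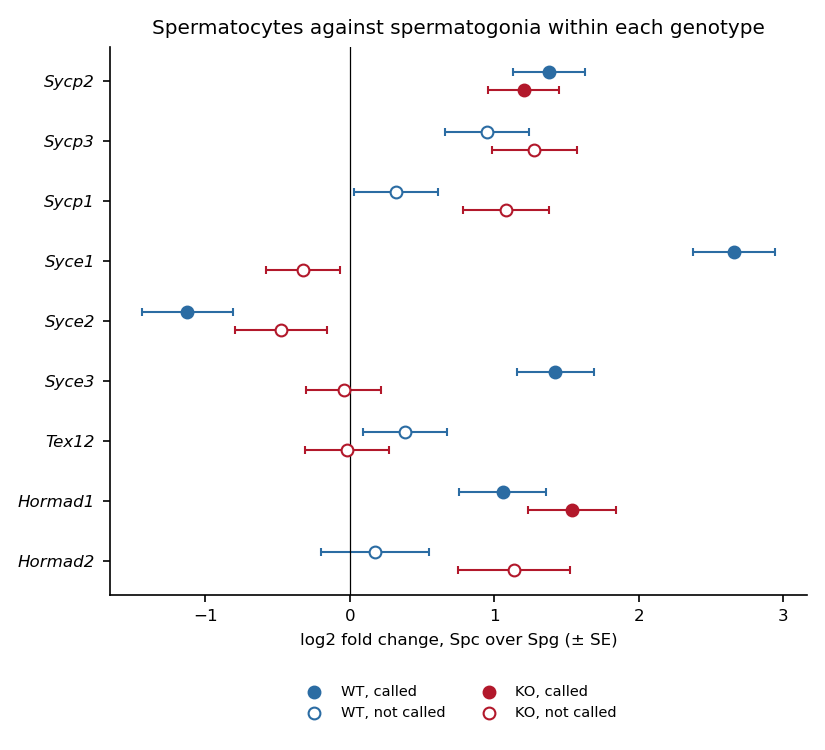
Log2 fold change from spermatogonia to spermatocytes for each gene, in WT and in KO, with bars of 1 SE and filled points where the adjusted p is under 0.01. Syce1 and Syce3 are at 2.66 and 1.42 in WT and at -0.32 and -0.04 in KO, while Sycp2, Sycp3 and Hormad1 lie above 0 in both.

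Levels of different genes were compared per length, as mean CPM per kilobase of exon. In WT spermatogonia the order ran from Sycp3 (215), Sycp1 (131) and Hormad1 (97.5) down to Syce3 (33.5) and Hormad2 (12.5). Syce1 was the highest in WT spermatocytes, at 444, next to Sycp3 at 415, and the ranges of both overlapped. In KO spermatocytes Sycp3 led at 404 and Syce1 was at 51.99, close to Syce2 at 47.05. Hormad2 was the lowest in all 4 groups, from 10.4 in KO spermatogonia to 22.9 in KO spermatocytes.

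Ratios within a library do not depend on the scaling between libraries. The log2 ratio of Syce1 to Sycp1 counts was -3.65, -2.08, -3.04 and -3.80 in KO and 0.82, 0.20, -1.20 and 0.86 in WT spermatocytes. Every KO library was below every WT library, with WT replicate 3 the lowest of its group and KO replicate 2 the highest of its own. The difference of the means was -3.31 (-3.14 ± 0.78 in KO, 0.17 ± 0.96 in WT, SD, n = 4, two-sided exact permutation p = 0.0286, adjusted p = 0.0762 over 8 ratio tests). For Tex12 to Syce2 the log2 ratio was -0.98, -1.58, -1.37 and -0.92 in KO and -0.03, 0.09, -0.39 and -0.28 in WT spermatocytes, without overlap (difference -1.06, exact permutation p = 0.0286, adjusted p = 0.0762). The WT spermatocyte ratios also lay above those of all 6 spermatogonia libraries, which were -1.65, -1.71 and -1.78 in KO and -1.69, -1.38 and -1.95 in WT.

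The log2 ratio of Hormad2 to Hormad1 was -2.61, -2.14, -2.56 and -2.80 in KO and -3.87, -2.92, -2.86 and -3.75 in WT spermatocytes, higher in every KO library (difference 0.82, exact permutation p = 0.0286, adjusted p = 0.0762). Sycp1 to Sycp3 differed by 0.32 with overlapping groups (exact permutation p = 0.114, adjusted p = 0.229). The value 0.0286 is the smallest that 4 against 4 libraries can give. With 8 tests, of which those in spermatogonia cannot go below 0.10, no ratio could reach an adjusted p under 0.05, so missing it says nothing of the ratios. With replicates 1 and 4 summed to 3 libraries per genotype, Syce1 to Sycp1 differed by -2.90, Tex12 to Syce2 by -1.15 and Hormad2 to Hormad1 by 0.73, each without overlap and at the smallest exact permutation p of that design, 0.10. In spermatogonia all 4 ratios overlapped between the genotypes, with exact permutation p from 0.3 to 0.8 without pairing. With same-numbered libraries as pairs, Hormad2 to Hormad1 was higher in KO in 3 of 3 pairs, by 0.0075 to 0.37, at the smallest exact permutation p that 3 pairs allow (0.25).

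**Figure D4:**
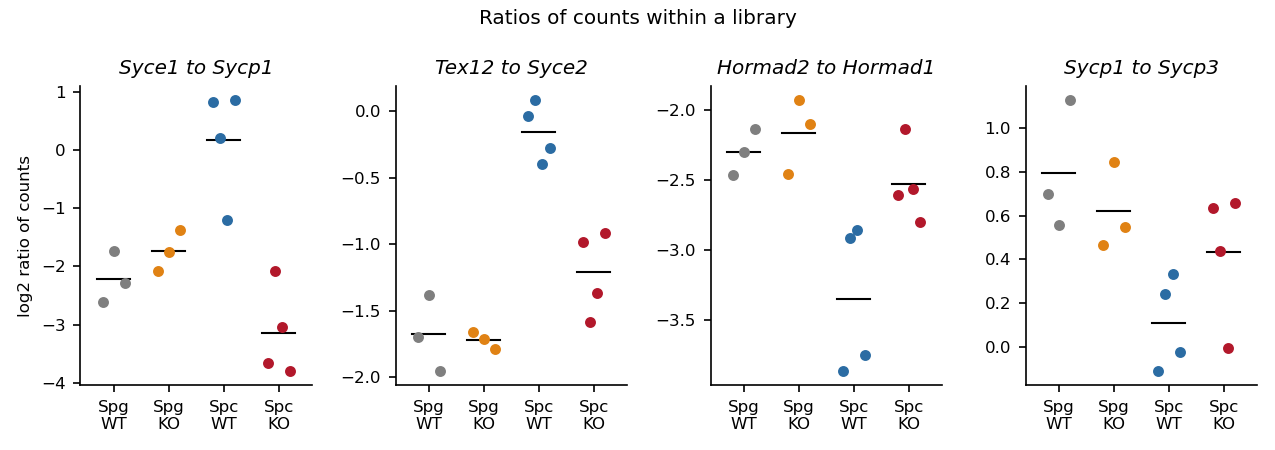
Log2 ratio of counts within each library for the 4 pairs of genes, by stage and genotype, with points for libraries and bars for group means. In spermatocytes KO and WT do not overlap for Syce1 to Sycp1, Tex12 to Syce2 and Hormad2 to Hormad1.

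Summed over the 9 genes, the level was 945 to 1346 CPM in KO and 1388 to 1741 CPM in WT spermatogonia, and 1602 to 2730 CPM in KO and 3015 to 3877 CPM in WT spermatocytes. Markers of germ cell stages moved with the groups in which the members differed. The pachytene list (8 genes such as Piwil1, Ldhc and Hspa2) summed to 517 to 695 CPM in KO and 9031 to 15008 CPM in WT spermatocytes, with 7 of 8 called lower, where 30.1% of all features were, and none of them at 0. The early meiotic list (7 genes such as Dmc1, Prdm9 and Stra8) ran the other way, at 549 to 651 CPM in KO and 67.9 to 240.1 CPM in WT, with 5 of 7 called higher, where 27.4% of all features were. In the spermatogonia libraries it summed to 534 to 761 CPM over both genotypes. The spermatid list was at 2.63 to 9.27 CPM in KO and 55.8 to 1192 CPM in WT spermatocytes, with all 7 genes called lower. Its sums cover 6 of the 7, since Prm1 had no row for spermatogonia. The spermatogonia list was at 430 to 974 CPM in KO and 169 to 407 CPM in WT, 6 of 9 higher and 1 lower. The part of these lists in the values of the 9 genes was not tested.

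Of the somatic lists, 3 were higher in every KO than in every WT spermatocyte library. The Leydig list was at 53.4 to 318 CPM against 13.9 to 29.5 CPM (5 of 5 called higher, beside the same 27.4% of all features), the peritubular list at 16.9 to 168 CPM against 3.55 to 10.3 CPM (3 of 4), and the macrophage list at 17.2 to 83.4 CPM against 2.16 to 4.22 CPM (4 of 4). The Sertoli list overlapped between the genotypes, at 69.0 to 294 CPM in KO and 30.7 to 102.7 CPM in WT, with 1 of 6 genes called higher, below that share. The erythroid list also overlapped, at 0.076 to 9.56 CPM in KO and 0.27 to 1.15 CPM in WT, with 1 gene of 4 tested and not called. In spermatogonia none of the 9 marker lists had a called gene (0.0741% of all features), and the pachytene sum was 385 to 445 CPM in KO and 560 to 1938 CPM in WT, where WT replicate 2 was the highest. Without WT spermatocyte replicate 3, the same 3 members were called in spermatocytes.

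**Figure D5:**
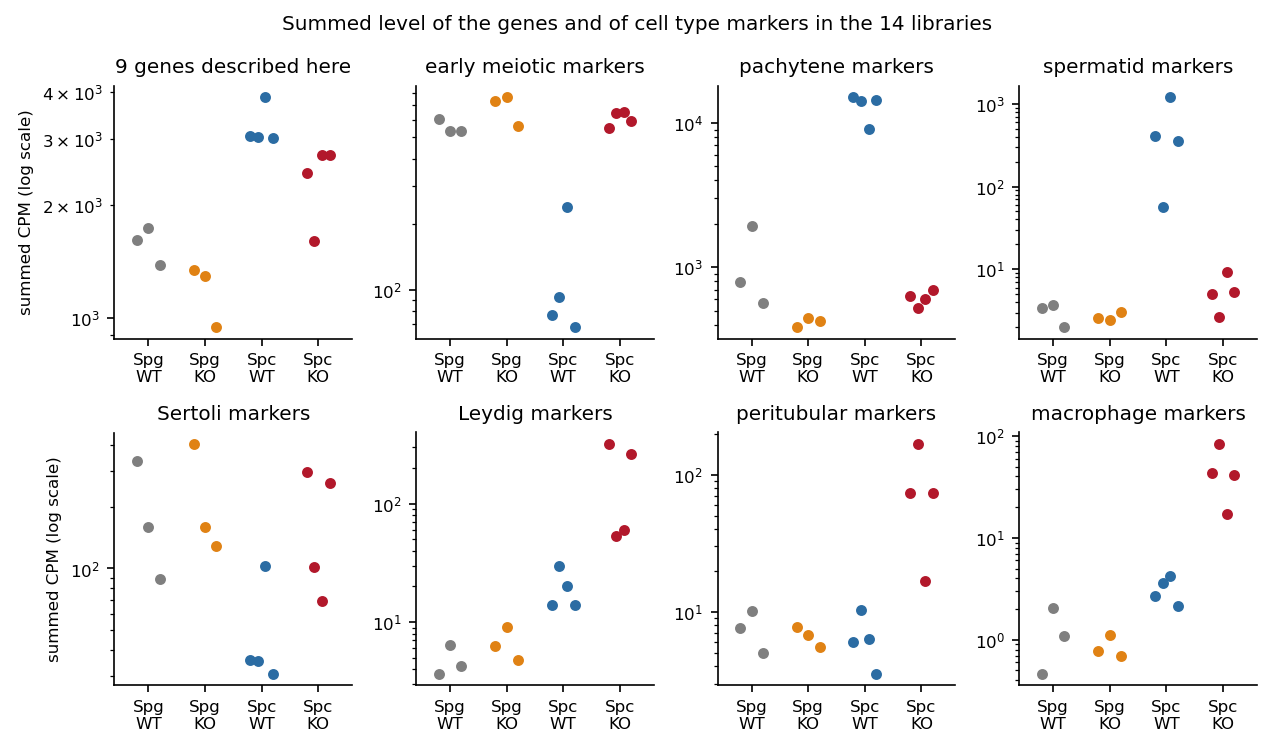
Summed level (CPM, log axis) of the 9 members and of marker lists of germ cell stages and somatic cells in each library. In spermatocytes the pachytene and spermatid lists are higher in WT and the early meiotic, Leydig, peritubular and macrophage lists higher in KO, while the Sertoli list overlaps.

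Genes that work with the complex were read from lists chosen by role. Of 11 synapsis partners, 3 were called higher and 1 lower in KO spermatocytes, below the 57.4% of all features called in this comparison. Tex11, an X-linked crossover gene, went from 16.2 ± 18.99 CPM in WT to 137 ± 28.7 CPM in KO (log2 3.13, edgeR adjusted p = 0.00359). Trip13, the ATPase that strips HORMA proteins from synapsed axes, was higher by 1.48 (edgeR adjusted p = 0.00338). The central element gene Six6os1, listed as 4930447C04Rik, was higher by 1.79 (edgeR adjusted p = 0.00275), opposite to Syce1 and Syce3. Psma8, a subunit of the testis proteasome found at the synaptonemal complex, was lower (log2 -3.04, edgeR adjusted p = 1.42e-05).

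Of the 5 axis cohesins, which hold sister chromatids to the axis, Rad21l (3.79) and Smc3 (2.44) were called higher and Stag3 (-1.57) lower in KO spermatocytes, while Rec8 and Smc1b were not called. Of 6 genes that signal asynapsis, Brca1 was called higher (2.22) and Atr (-1.75), Mdc1 (-1.30) and H2ax (-1.33) lower. Of 10 regulators of meiotic genes, Stra8 (3.05), Meiosin, listed as Gm4969 (3.57), Mga (2.07) and E2f6 (2.19) were called higher. Rfx2 (-4.40), Tcfl5 (-3.59), Pcgf6 (-2.51) and L3mbtl2 (-1.25) were called lower, so 8 of 10 regulators were called, against 3 of 5 cohesins and 4 of 6 asynapsis genes beside the same 57.4%, and genes of the same repressive complex (Mga, E2f6, Pcgf6 and L3mbtl2) fell on both sides. All values are log2 fold changes of KO over WT, and the medians of the 4 lists were 0.33, -0.06, -0.76 and 0.00 against 0.11 over all genes. In spermatogonia, and between the KO stages, none of the 4 lists had a called gene, where 0.0741% and 2.99% of all features were called. Between the WT stages 1 synapsis partner was called higher and 2 lower, 1 cohesin higher and 2 lower, 3 asynapsis genes higher and 1 lower, and 5 regulators higher and 4 lower, where 51.4% of all features were called. The difference of the knockout effect between stages called none of the synapsis partners, Smc3, Rad21l and Stag3 of the cohesins, Brca1 of the asynapsis genes and 5 of the regulators (Mga and Gm4969 higher, Rfx2, Tcfl5 and L3mbtl2 lower), where 24.9% of all features were called.

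Across the 14 libraries the log2 levels of Syce1 and Syce3 were the most alike to each other (Pearson r = 0.929), and those of Sycp3 and Hormad1 likewise (r = 0.970). Syce2 ran against most members, with r = -0.38 to the mean profile of the 9 and r = -0.78 to Sycp2. A mean count of at least 100 was reached by 14696 genes, the members included. Of those that are no member, the closest to the members' mean profile were Poli (r = 0.984), Spata22 (r = 0.924), Fgfr1op (r = 0.922), Tmem70 (r = 0.919) and Vamp9 (r = 0.918). Poli encodes a translesion DNA polymerase and Spata22 a partner of MEIOB in meiotic recombination. Poli was at 51.0 CPM in WT and 45.1 CPM in KO spermatocytes and at 35.5 and 30.7 CPM in spermatogonia. These correlations describe 4 groups that share depth, scaling and stage, and carry no test.

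Single TE copies in or within 5000 bases of the 9 genes were read from the deposited TPM values, which are relative to the total of TE copies in a library. Of 833 annotated copies 264 were tested in spermatogonia and 244 in spermatocytes. None was called in spermatogonia by limma, where 0.00911% of all copies were. In spermatocytes 14 were called, or 5.74% of those near members, against 11.2% of all copies tested. Of these, 13 were higher in KO, 12 lay in introns on the strand of the gene, 8 were listed at 0 in every WT library and 6 were in Sycp1. The 8 copies at 0 in WT passed the filter through the KO libraries alone and so had to differ. The share of counts in TE differed between the genotypes in the same libraries, as given above, and its part was not tested.

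The B1_Mm copy in an intron of Sycp3 (chr10:88460936-88461032, as deposited) was at 114, 95.5, 174 and 122 TPM in KO and 10.7, 23.1, 57.2 and 22.5 TPM in WT spermatocytes (log2 2.37, limma adjusted p = 0.00606). The ID4_ copy in an intron of Hormad1 (chr3:95568744-95568818) was at 73.05, 66.7, 53.9 and 59.3 TPM in KO and 5.57, 9.99, 20.4 and 3.24 TPM in WT (log2 2.99, limma adjusted p = 0.00451). Neither gene was called between the genotypes, and in each copy every KO spermatocyte library was above every WT one. In spermatogonia neither was called. The Sycp3 copy was there at 80.03, 73.1 and 40.2 TPM in KO and 81.1, 94.7 and 59.9 TPM in WT, lower in KO in 3 of 3 same-numbered pairs. The Hormad1 copy was at 41.9, 30.5 and 19.1 TPM in KO and 6.86, 13.1 and 20.5 TPM in WT, higher in KO in 2 of 3. A B2_Mm1a copy upstream of Syce1 on the opposite strand (chr7:140790256-140790449) was at 2.69, 7.31, 5.84 and 1.11 TPM in KO spermatocytes and listed at 0 in all WT spermatocytes, so it passed the filter through the KO libraries alone. In spermatogonia the same copy was at 0, 3.03 and 1.33 TPM in KO and 6.14, 4.40 and 2.81 TPM in WT, lower in KO in each same-numbered pair.

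The copy called lower was an L2b element, an ancient LINE remnant, just upstream of Syce3 on the opposite strand (chr15:89410560-89410656, as deposited). It covers 97 bases between positions -153 and -57, the stretch in capitals in the Syce3 promoter above, give or take 1 base since the deposited positions do not state their counting. It was at 8.59, 3.85, 5.72 and 25.01 TPM in WT spermatocytes and listed at 0 in all 4 KO spermatocyte libraries and all 6 spermatogonia libraries. The copy passed the filter through WT spermatocytes alone and so had to differ, and these values are a description. WT replicate 4 was the highest and replicate 2 the lowest of the WT libraries. Within the WT spermatocyte libraries its order ran against that of Syce3, which was lowest in replicate 4 and highest in replicate 2. Within and beside Sycp1 lie 8 copies of the young L1Md_T subfamily on the opposite strand. In spermatocytes they reached at most 2.61 TPM in KO and 0.353 TPM in WT. Every KO library was above every WT library in 2 of them, 1 was listed at 0 throughout, and the other copies overlapped. The filter left 1 of the 8 to be tested, and it was not called. The number of called copies fell to 5 without WT spermatocyte replicate 1, 6 without WT replicate 4, 7 without KO replicate 3 and 9 without KO replicate 1, and rose to 29 without WT replicate 3. Over all copies tested the shares called moved too, to 6.35%, 6.44%, 7.72%, 8.32% and 11.7% in the same order, against 2.05%, 2.46%, 2.87%, 3.69% and 11.9% of those near members. The lower share near members than over all copies therefore rested on WT replicate 3.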

How the data were processed

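Polyadenylated RNA of 14 libraries was sequenced with a stranded kit, and the authors aligned the reads with STAR 2.7.3a to GRCm38, keeping up to 100 alignments per read. The deposited raw counts per gene and TE subfamily were made by the authors with TEtranscripts, strand-aware, sharing reads that map to several places. Values of individual TE copies were deposited as TPM, from TElocal, with a sum over TE copies alone as the denominator. The authors' own fold changes and p-values (DESeq2 1.44.0) were not used. Cutadapt 4.0 is named in the submitters' processing notes without its role.

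The 9 genes and the lists of partners and markers were chosen with earlier results of these data known. The text names all 9 genes, list genes by counts with values of those described, and the 5 genes most like the members. Counts went into edgeR 4.0.16 under R 4.3.3 (low counts removed by filterByExpr, TMM over genes and TE subfamilies, two-sided quasi-likelihood tests, Benjamini-Hochberg adjustment over all features). Each genotype comparison was fitted within its stage, and the stage comparisons and the difference in one fit over 4 groups, on features in both tables. Copies reaching 0.5 TPM on average entered limma 3.58.1 (with trend) on log2(TPM + 0.1), a scale that understates changes of low copies. Ratios used log2 of counts with 0.5 added. The edgeR and limma tests across features were first run on simulated data with few changed features. That setting differs from the spermatocyte comparison, where 57.4% of all features were called, and does not bear on calls that depended on scaling. The ratio tests were not simulated.

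Alternatives were DESeq2 1.42.0, other scaling, filters, thresholds and pseudocounts, a replicate block, summed spermatocyte replicates and each library left out. In spermatogonia the deviations of same-numbered KO and WT libraries from their group means correlated at r = 0.794, 0.189 and 0.331. Differently numbered ones ran from -0.659 to 0.349, the highest being KO replicate 2 with WT replicate 3. That is above the same-numbered values of replicates 2 and 3. The numbers were still taken to pair the libraries, a pairing read from the data and clear for replicate 1 alone. The blocked fit called none of the 9 either. In spermatocytes same-numbered libraries had r from -0.040 to 0.214, and the numbers were not taken to pair them. Libraries named rep4 in the spermatogonia table are those titled replicate 3. Gene positions are from GENCODE M21 on GRCm38, which held 97.5% and 97.6% of the gene identifiers, and promoters from RefSeq, where all 9 genes matched. Further analysis used Python 3.11.15, NumPy 2.4.6, SciPy 1.17.1, pandas 2.3.3 and matplotlib 3.10.9.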

Additional observations from a re-analysis of the deposited data

Results flagged for a closer look

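The knockout effect differed between spermatogonia and spermatocytes for 2 of the 9 genes by a test of the difference itself. Over all features 24.9% were called and 14.3% called lower, so the count was near the share of all features called. For Syce1 the log2 difference was -2.98 (SE 0.37, edgeR adjusted p = 0.000170), from -0.15 in spermatogonia and -3.08 in spermatocytes, where it was lower in 4 of 4 KO libraries than in any WT library. For Syce3 it was -1.46 (SE 0.37, edgeR adjusted p = 0.00645), from -0.28 and -1.68, again lower in 4 of 4 KO libraries. With the replicate number as a block the Syce3 difference was -1.49 and missed the threshold (edgeR adjusted p = 0.0101), while that of Syce1 stayed called (adjusted p = 0.00185). The Syce3 call was also lost under library totals (-0.72, edgeR adjusted p = 0.191), with spermatocyte replicates 1 and 4 summed and without single libraries, as given above. Stage, age and sort differ together in this contrast and cannot be told apart. By Dixon's test on the levels of the 9 genes and on the ratios, no library stood apart in the spermatocyte groups of 4, the size that test was run on. The marker sums, in which WT replicate 3 was low, were not tested so.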

How the results depend on the processing

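Across the alternatives, members' log2 fold changes kept direction and call in 799 cases, lost the call in 62, gained it in 11 and changed sign in 28. Where a cause is not given, the cause was not tested. Members called in spermatogonia stayed at 0 throughout. Scaling by library totals left 1 member called in spermatocytes (58.1% of all features), 2 between the WT stages (53.1%), 0 between the KO stages (2.41%) and 1 for the difference between stages (23.8%). It turned the sign of Sycp3 (0.63) and Tex12 (0.38) in spermatocytes, of Sycp1 (-0.43), Tex12 (-0.38) and Hormad2 (-0.54) between the WT stages, and of Sycp2 (0.53) and Tex12 (0.28) for the difference. The shift of all genes under that scaling is given with the results above. A mean count of at least 50 turned Sycp3 to 0.045 in spermatocytes.

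Between the KO stages 4 members were called at an adjusted p under 0.05 (8.33% of all features) and 4 by DESeq2 (9.53%), 1 without the filter (2.14%), and 0 with spermatocyte replicates 1 and 4 summed (1.41%), which leaves fewer libraries. The difference between stages called 1 member without the filter (19.0% of all features) and 1 with the replicates summed (14.3%). Summing them turned Hormad1 in spermatocytes to -0.043, and Syce3 and Tex12 between the KO stages to 0.053 and 0.034.

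With the replicate block, 0 members were called between the KO stages (1.49% of all features), 4 between the WT stages, where Hormad1 was lost (47.2%), and 1 for the difference, where Syce3 was lost (23.9%). It called 4 instead of 14 TE copies in spermatocytes (3.97% of all copies), and under it Syce3 and Tex12 between the KO stages turned to 0.026 and 0.10. In spermatocytes the block called 4 members (50.9% of all features), Syce2 (log2 0.90, edgeR adjusted p = 0.00734) in addition. The replicate numbers were not taken to pair the spermatocyte libraries. For spermatogonia the block changed no call, though it moved Sycp2 to an edgeR adjusted p of 0.0297.

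Leaving out 1 library at a time gave 0 to 3 members called between the KO stages (0.428% to 4.04% of all features), 3 to 5 between the WT stages (41.4% to 54.5%), 1 to 2 for the difference (14.6% to 36.4%), 2 to 3 in spermatocytes (45.6% to 60.5%) and 5 to 29 TE copies (6.35% to 13.1% of all copies). The log2 ranges of the results that changed sign were -0.31 to 0.11 for Syce1 and -0.048 to 0.20 for Tex12 in spermatogonia, -0.21 to 0.18 for Sycp3 and -0.021 to 0.33 for Hormad1 in spermatocytes. They were -0.24 to 0.40 for Hormad2 between the WT stages, -0.25 to 0.037 for Syce3 and -0.13 to 0.0036 for Tex12 between the KO stages, and -0.31 to 0.19 for Sycp2 in the difference. The log2 ratio of Tex12 to Syce2 in spermatogonia ran from -0.18 to 0.11, with the sign turned without WT replicate 2. The other ratios kept their sign. Sycp3 was called between the KO stages without KO spermatocyte replicate 2 (edgeR adjusted p = 0.00492).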
